A study of Mus musculus with 8 samples.

Results

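The genes of major histocompatibility complex (MHC) class II antigen presentation were followed in forepaw skin of mice lacking keratin 16. Of 10 listed genes, 9 had a probe set annotated with that gene alone, and these 9 probe sets, of 32750 annotated non-control probe sets on the array, were taken as members by their annotated symbol. The tenth, Cd74, shares its only probe set with the microRNA gene Mir5107, which lies inside the Cd74 gene in the RefSeq table, so that probe set was kept out of every count. The arrays came from 4 Krt16 null mice with paw lesions (2 males, 2 females) and 4 Krt16 WT littermates with normal paw skin (2 males, 2 females), all C57Bl/6 and 8 weeks old. In the null allele bacterial LacZ stands in place of the Krt16 coding sequence, and lesional skin was taken from null mice only, so effects of genotype and of lesion cannot be told apart. RNA was extracted from whole paw skin, and 1 array was run per mouse.

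MHC class II molecules show peptides from endocytosed proteins to CD4+ T cells. An alpha and a beta chain pair in the endoplasmic reticulum with the invariant chain, which is later cut away in endosomes and replaced by peptide with the help of H2-M, a step that H2-O restrains. In healthy skin the main carriers are Langerhans cells of the epidermis and dendritic cells and macrophages of the dermis, and interferon gamma can induce the genes in other cells through the transactivator CIITA. CIITA does not bind DNA itself. It docks on RFX and NF-Y proteins bound to the X and Y boxes, a pair of short elements upstream of class II genes.

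The upstream elements are shown because the members other than Ciita, which encodes the transactivator itself, are known to share this form of control. They also allow the members that rose to be set beside those that did not. RefSeq promoter windows (GRCm38.p6, 250 bases before to 50 after each start site) were matched for 7 of the 9 genes, as 8 windows with 2 for H2-DMa. No window was matched for H2-Ab1, the member with the largest difference, or for Ciita, so the comparison lacks both. The letters searched on both strands were GATTGG, the core of the Y box (it contains ATTGG, the reverse complement of CCAAT), and GNAAC, a short core of the X box. A pair was counted where GATTGG began 20 to 45 bases after the first base of GNAAC on the same strand. Stretches of the windows are printed below 5′ to 3′ on the strand of the gene, with GATTGG and, where paired, GNAAC in capitals.
H2-Aa (chr17:34287859-34287912, minus strand): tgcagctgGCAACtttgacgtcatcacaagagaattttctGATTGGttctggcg
H2-Eb1 (chr17:34305768-34305820, plus strand): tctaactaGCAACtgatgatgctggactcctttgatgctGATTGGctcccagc
H2-DMb1 (chr17:34153089-34153142, plus strand): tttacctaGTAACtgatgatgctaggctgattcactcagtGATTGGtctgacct
H2-DMb2 (chr17:34145118-34145171, plus strand): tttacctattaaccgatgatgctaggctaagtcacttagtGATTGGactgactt
H2-Oa (chr17:34092295-34092348, plus strand): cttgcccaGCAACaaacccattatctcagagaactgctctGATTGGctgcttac
H2-Ob (chr17:34238810-34238860, plus strand): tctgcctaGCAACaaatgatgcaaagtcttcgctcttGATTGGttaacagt
The pair stood in 5 of the 8 windows, those of H2-Aa, H2-Eb1, H2-DMb1, H2-Oa and H2-Ob, and in 1.45% of all 32851 promoter windows in the table. In these 5 the first bases of both elements lay 29 to 32 bases apart, and GATTGG began 44 to 62 bases before the start site. GATTGG alone stood in 7 of the 8 windows and in 16.1% of all windows. Of the H2-DMa windows, which are not printed, 1 held GATTGG, farther upstream than in the printed stretches, and neither held the pair. The H2-DMb2 window held GATTGG 91 bases before its start site and no GNAAC in the paired position. Letters and spacing were chosen after these sequences had been read, so the shares are a description. A match is not a measured binding site.

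Values below are deposited log2 signals, given as mean ± SD over 4 mice, and differences are null minus WT on the log2 scale with the standard error (SE) of the fit. A probe set was called when the Benjamini-Hochberg adjusted p of limma, taken over all 32750 probe sets with sex as a covariate, lay under 0.05. Signals of different probe sets are not comparable as levels. Negative control probe sets had medians of 4.26 to 4.46 across arrays, and signals under them do not give an exact size of change. Krt16 itself read 6.83, 6.88, 6.89 and 6.99 in null skin, against 8.48, 8.20, 7.05 and 9.66 in WT skin (difference -1.45, SE 0.44, limma adjusted p = 0.0648). All 4 null arrays were below all WT arrays, and the call was reached without female WT 1 (adjusted p = 0.000893) and with same-numbered mice as pairs (0.0315). It was reached under only 4 of 18 alternative fits, and in 1 of the 8 with an array left out. The highest limma adjusted p among the 18 was 0.185. The null readings lay above the negative control medians, and the source of that signal was not tested.

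Class II genes were modestly higher in null lesions. Of the 9 member probe sets 4 were called higher and 0 lower, where 6.91% of all probe sets were called higher and 5.74% lower (limma; 0 members were lower at an unadjusted p under 0.05). Those called were the genes of the class II chains, H2-Aa, H2-Ab1 and H2-Eb1, and of the H2-M subunit H2-DMb1. The count was 2 without female null 1, without either male WT array or without female WT 2, and 6 without female WT 1. The shares of all probe sets were taken with all arrays only. The rises were 1.29-fold to 1.57-fold, and the median difference over the 9 was 0.31, beside 0.01 over all probe sets. In bulk skin, more cells of a type and more RNA per cell cannot be told apart.

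H2-Ab1 encodes the beta chain of I-A, the class II molecule that C57Bl/6 mice display. It read 8.12 and 7.49 in null males and 7.83 and 7.88 in null females, against 6.99 and 7.22 in WT males and 7.40 and 7.11 in WT females. All null arrays lay above all WT arrays, the nearest being male null 2 and female WT 1. The means were 7.83 ± 0.26 in null and 7.18 ± 0.17 in WT skin, a difference of 0.65 (SE 0.13, adjusted p = 0.0134), or 1.57-fold.

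H2-Aa encodes the alpha chain that pairs with it. It read 6.28 and 5.82 in null males and 6.00 and 6.04 in null females, against 5.44 and 5.54 in WT males and 5.78 and 5.47 in WT females. The groups did not overlap, although male null 2 was only just above female WT 1. H2-Aa averaged 6.04 ± 0.19 in null and 5.56 ± 0.15 in WT skin, a difference of 0.48 (SE 0.11, adjusted p = 0.0217).

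H2-Eb1 encodes the beta chain of I-E, a second class II molecule that C57Bl/6 mice do not display because the gene of its alpha chain is defective in this strain. It read 6.70 and 6.27 in null males and 6.40 and 6.34 in null females, against 5.78 and 5.93 in WT males and 6.07 and 5.75 in WT females. Null and WT arrays again stood apart, in the same order at the border. The difference was 0.54 (SE 0.11, adjusted p = 0.0128), from means of 6.43 ± 0.19 in null and 5.88 ± 0.15 in WT skin.

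**Figure D1:**
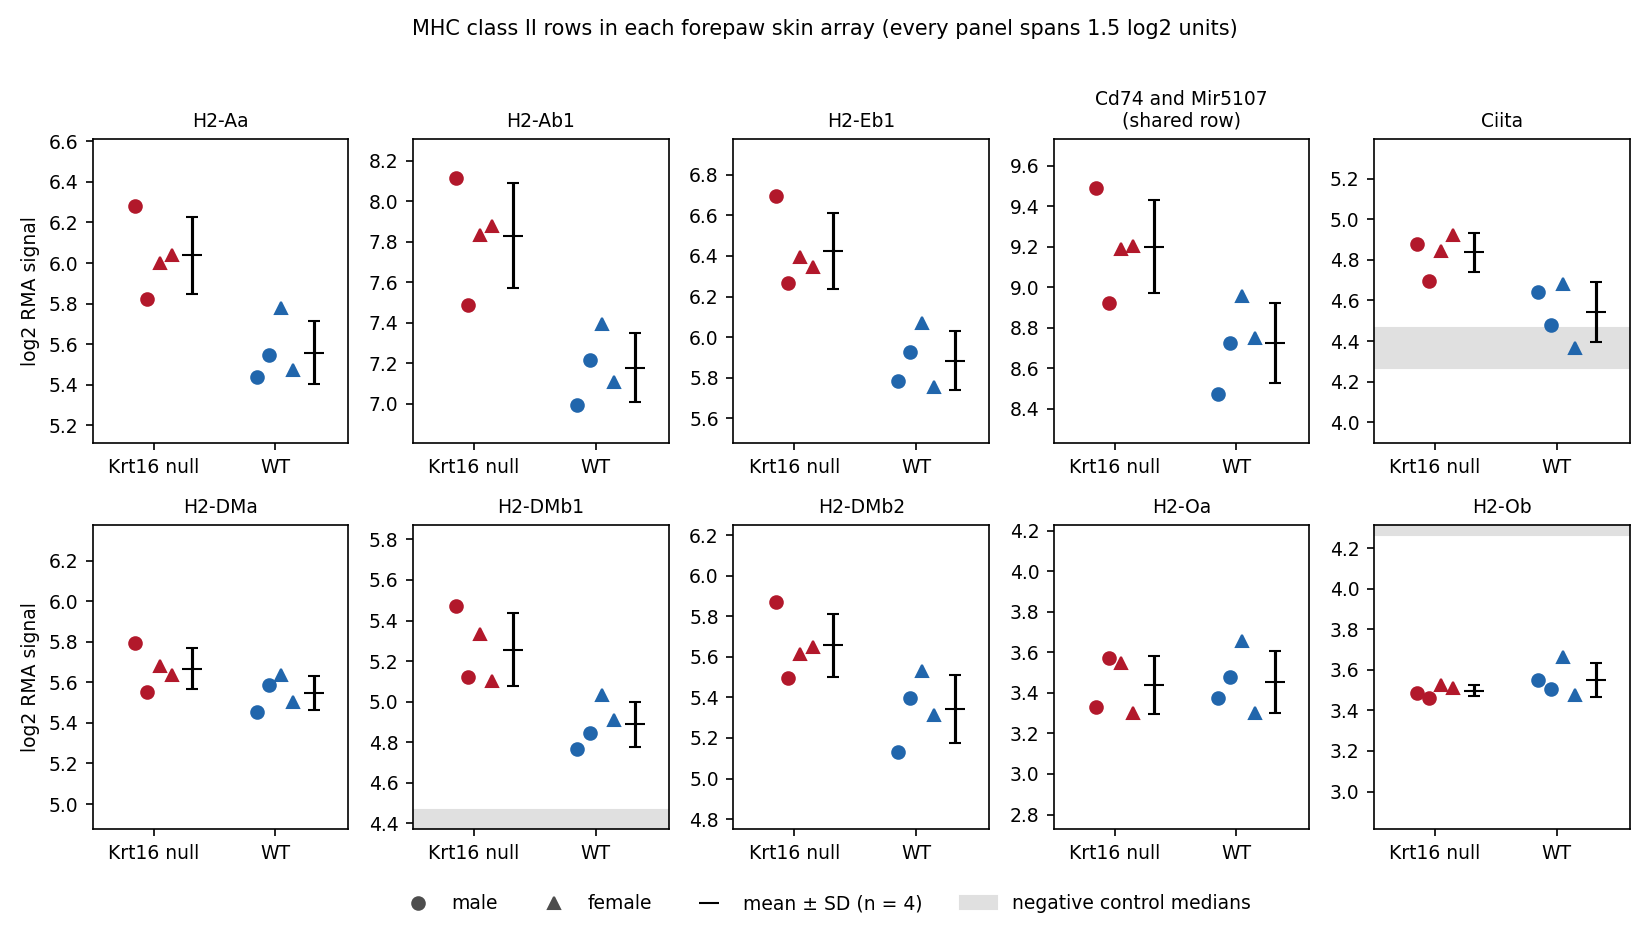
Log2 RMA signal of each MHC class II probe set on the 4 Krt16 null arrays (red, left) and the 4 WT arrays (blue, right), with circles for males, triangles for females, black bars for mean ± SD (n = 4) and a grey band for the negative control medians of 4.26 to 4.46. Null and WT arrays do not overlap for H2-Aa, H2-Ab1, H2-Eb1, Ciita and H2-DMb1, and H2-Oa and H2-Ob lie under the grey band on all 8 arrays.

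The chains differed in how firmly they were called. H2-Ab1 and H2-Eb1 passed whichever array was left out (adjusted p 0.00915 to 0.0468 and 0.00529 to 0.0450). For H2-Aa the adjusted p was 0.0546 without female null 1, 0.0508 without female null 2, 0.0714 without male WT 1, 0.0531 without male WT 2 and 0.0583 without female WT 2, with differences of 0.43 to 0.50.

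The probe set shared by Cd74, which encodes the invariant chain, and Mir5107 read 9.49, 8.92, 9.19 and 9.20 in null skin, against 8.47, 8.72, 8.96 and 8.75 in WT skin. Male null 2 lay under female WT 1, so the groups overlapped. The difference was 0.48 (SE 0.13, adjusted p = 0.0399), and fitting same-numbered mice as pairs gave 0.0534. The adjusted p was also 0.0675 after repeated quantile normalization (difference 0.39), 0.0543 with median centring and 0.0502 over all non-control probe sets. The call was also missed without female null 1 (0.0841), female null 2 (0.0727), male WT 1 (0.118), male WT 2 (0.0750) or female WT 2 (0.0903). The microRNA and its host gene cannot be told apart in this value.

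Ciita, the transactivator gene, read 4.88 and 4.70 in null males and 4.85 and 4.92 in null females, against 4.64 and 4.48 in WT males and 4.68 and 4.36 in WT females. All null arrays lay above all WT arrays by a narrow margin, and female WT 2 lay under the negative control median of its array. The means were 4.84 ± 0.10 in null and 4.54 ± 0.15 in WT skin, and their difference of 0.29 (SE 0.09) was not called (adjusted p = 0.0574). It passed without female WT 1 (0.35, adjusted p = 0.0357) and with same-numbered mice as pairs (adjusted p = 0.0499565).

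H2-M, the peptide exchange factor, is made of an alpha chain from H2-DMa and a beta chain from H2-DMb1 or H2-DMb2, which are neighbouring paralogs. H2-DMb1 read 5.47 and 5.12 in null males and 5.33 and 5.10 in null females, against 4.77 and 4.85 in WT males and 5.03 and 4.91 in WT females. Null and WT arrays did not overlap, and the difference was 0.37 (SE 0.10, adjusted p = 0.0403). This call held without female WT 1 or female null 2 and was missed without male null 1 (0.0595), male null 2 (0.0621), female null 1 (0.117), male WT 1 (0.121), male WT 2 (0.0983) or female WT 2 (0.0796).

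H2-DMb2 read 5.87, 5.50, 5.61 and 5.65 in null skin, against 5.13, 5.396, 5.53 and 5.32 in WT skin. Only male null 2 fell below the highest WT array, female WT 1. The difference of 0.31 (SE 0.10) was not called (adjusted p = 0.0833), but was without female WT 1 (0.38, adjusted p = 0.0435). Signal shared between the probe sets of these paralogs was not tested.

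H2-DMa showed the smallest positive difference of the members. It averaged 5.67 ± 0.10 in null and 5.55 ± 0.08 in WT skin, a difference of 0.12 (SE 0.07, adjusted p = 0.334), and the groups overlapped. With arrays left out in turn its adjusted p was 0.249 to 0.587.

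H2-Oa and H2-Ob encode H2-O, the modulator of H2-M that is best known from B cells and some dendritic cells. Both lay under the negative control median on all 8 arrays. H2-Oa ranged from 3.30 to 3.57 in null and from 3.30 to 3.65 in WT skin, and H2-Ob from 3.46 to 3.53 in null and from 3.48 to 3.67 in WT skin. Differences were -0.014 (SE 0.10) and -0.053 (SE 0.06), and neither was called (adjusted p = 0.953 and 0.630). Both promoter windows hold the same pair of elements as those of H2-Aa, H2-Eb1 and H2-DMb1.

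Arrays kept a similar order across members. The genotypes stood apart in 5 of the 9 probe sets, all with null above WT, as in 10.1% of all probe sets. None had null below WT, as 8.6% of all did. Female WT 1 was the highest WT array in 9 of 9. Among the 7 probe sets with a positive difference, male null 1 was the highest null array in 6 and male null 2 the lowest in 6. The mean over the 3 chain probe sets was 7.03, 6.53, 6.74 and 6.75 in null skin, against 6.07, 6.23, 6.42 and 6.11 in WT skin.

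The 7 members with a positive difference had one in males and in females alike. For H2-Ab1 the difference was 0.70 (SE 0.20) in males and 0.60 (SE 0.20) in females, and for H2-Eb1 0.63 (SE 0.16) and 0.46 (SE 0.16). H2-DMb1 had the widest gap, with 0.49 (SE 0.13) in males and 0.24 (SE 0.13) in females (limma adjusted p = 0.974 for the gap). A different effect in males and females was called by limma for 0 of 9 member probe sets, and 0 had an unadjusted p under 0.05, where 0.00611% of all probe sets were called and 4.2% had such a p. With 2 arrays a group, 0 members were called within males and 0 within females by limma, where 2.12% and 2.81% of all probe sets were. Of the members, 5 had an unadjusted p under 0.05 in males and 4 in females. The share of all probe sets with such a p within a sex was not taken, so these counts have nothing to be set against.

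**Figure D2:**
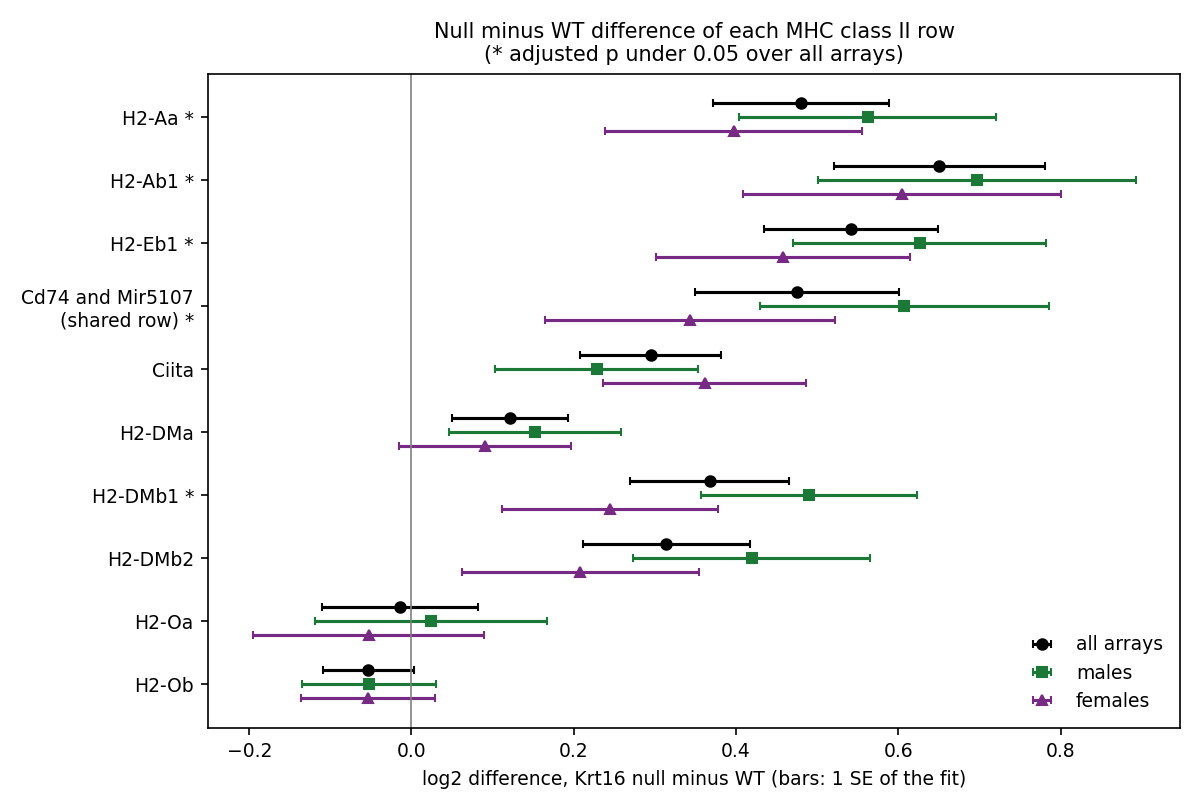
Log2 difference of each MHC class II probe set, Krt16 null minus WT, over all arrays (black circles), in males (green squares) and in females (purple triangles), with bars of 1 SE of the limma fit. H2-Ab1 has the largest difference at 0.65, and H2-Oa and H2-Ob lie at -0.014 and -0.053.

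Genes for the factors that bind class II promoters were next. Of 7, which comprise the RFX subunits, the NF-Y subunits and CREB1, 0 were called by limma, 0 had an unadjusted p under 0.05, and their median difference was -0.061. The smallest p values belonged to the RFX subunit gene Rfxap (0.12, adjusted p = 0.218) and to Creb1 (0.10, adjusted p = 0.264).

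Among 12 measured genes of endosomal processing and class II turnover 3 rose and 0 fell, with a median of 0.10. The cathepsin genes Ctsh and Ctsl, for endosomal proteases, rose, Ctsh by 0.73 (SE 0.09, adjusted p = 0.00144) and Ctsl by 0.45 (SE 0.06, adjusted p = 0.00343). Null arrays exceeded WT arrays without overlap for both, which were called whichever array was left out. The list count was 2 without any one male array or female null 2.

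Class I molecules present peptides from inside the cell to CD8+ T cells. Of 13 measured class I presentation genes, 4 rose and 0 fell, with a median of 0.22. The class I heavy chain gene H2-K1 rose by 0.46 (SE 0.07, adjusted p = 0.00311) and Erap1, for the peptidase that trims class I peptides in the endoplasmic reticulum, by 0.43 (SE 0.06, adjusted p = 0.00358). Neither lost its call with any array left out. With same-numbered mice as pairs 6 of the 13 were higher. The count was 3 without any single male array or either female null array, 4 without female WT 2 and 5 without female WT 1. It was also 3 over all non-control probe sets, after repeated quantile normalization and with median centring. It was 5 without the sex term, with 1 gene per probe set, no trend, a robust prior or array weights, and 6 without dim probe sets. Tapbp, for a chaperone of class I peptide loading and singled out after its values were seen, had all null arrays under the WT arrays (-0.17, adjusted p = 0.0623). One gene of the list was called lower without dim probe sets, after repeated quantile normalization and with array weights. Signal that class I heavy chain paralogs share on the array was not tested.

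Genes of interferon gamma signalling moved both ways. Of 14 probe sets for 13 genes, 2 rose and 3 fell, with a median of 0.0036. The receptor subunit gene Ifngr2 rose by 0.49 (SE 0.05, adjusted p = 0.000789), while the interferon-induced GTPase genes Igtp and Gbp2 fell, Igtp by 0.63 (SE 0.11, adjusted p = 0.00667) and Gbp2 by 0.50 (SE 0.12, adjusted p = 0.0260). The kinase gene Jak2 rose by 0.27 (adjusted p = 0.0286) and lost its call without any single array other than female null 2 or female WT 2 (0.0529 to 0.0922). Gbp2 missed the call without male null 2, female null 1, female null 2, male WT 1 or female WT 2 (0.0679 to 0.0857). Ifng itself, singled out after its values were seen, averaged 2.93 in null and 2.93 in WT skin, under the negative control median on all 8 arrays.

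Of 10 measured cytokine and receptor genes that act on class II, 1 rose and 1 fell. Il4ra, the shared receptor chain for interleukins 4 and 13, rose by 1.21 (SE 0.09, adjusted p = 0.000134). Flt3l, for a growth factor of dendritic cells, fell by 0.27 (adjusted p = 0.0448), a call that held only with all arrays or without female WT 2 (0.0574 to 0.136 otherwise). Of 12 T cell costimulation genes 2 rose and 0 fell. Icos and Ctla4, for T cell receptors of costimulation and inhibition, rose by 1.22 (adjusted p = 7.87e-05) and 0.59 (adjusted p = 0.00550), but neither is an exact size: Icos lay under the negative control median on 4 arrays, with means of 4.95 in null and 3.73 in WT skin, and Ctla4 on all 8. Without female WT 1 the costimulation count was 4.

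**Figure D3:**
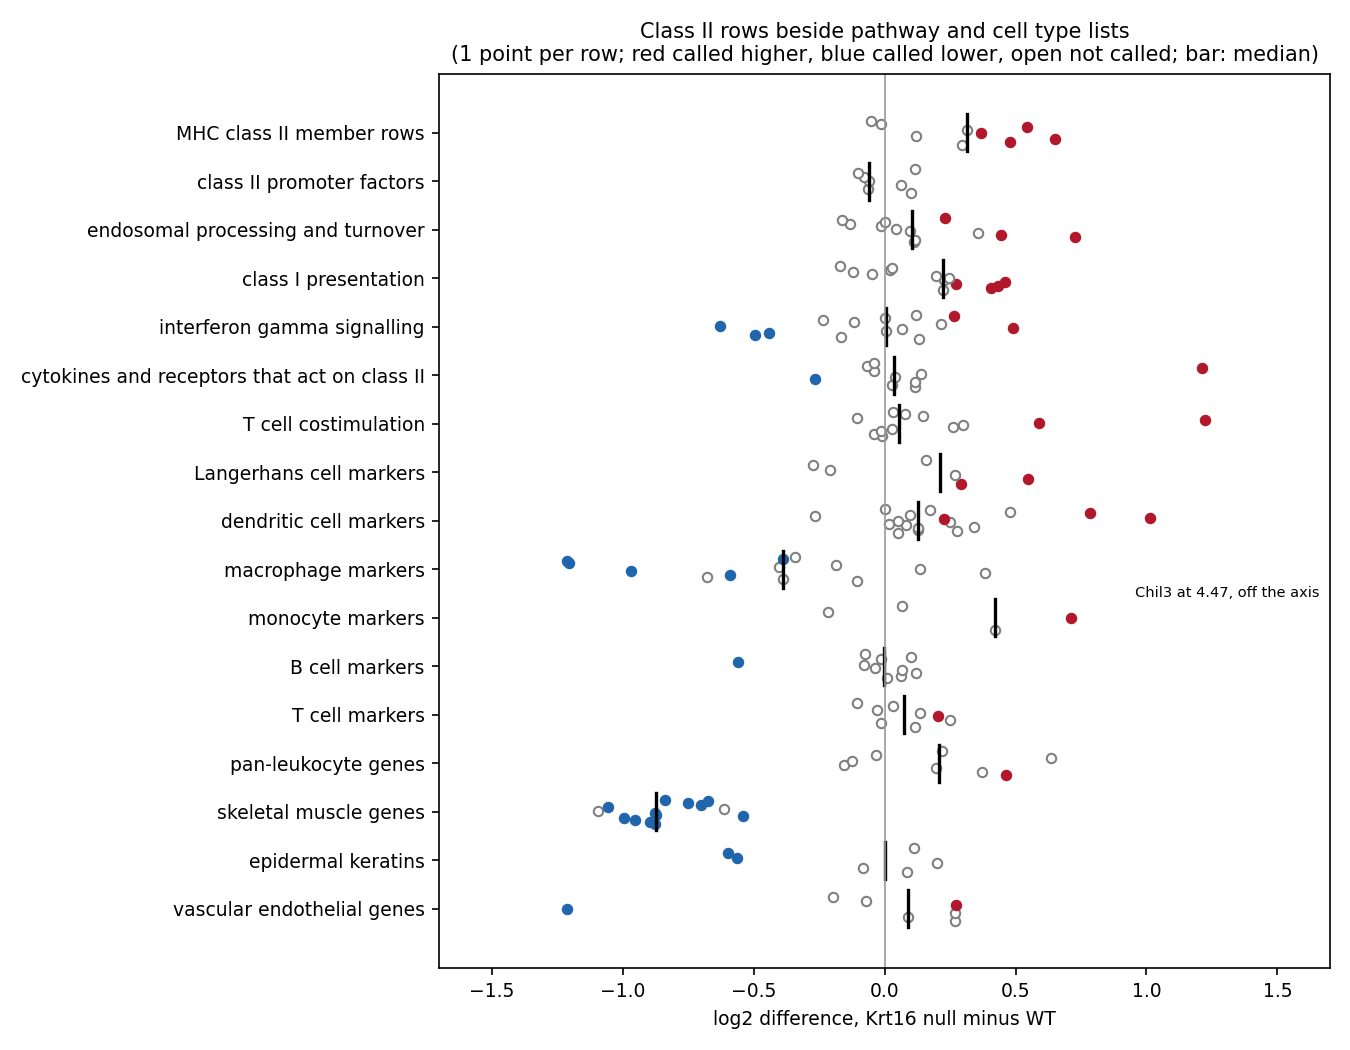
Log2 difference, Krt16 null minus WT, of every probe set in the class II member list, 6 pathway lists and 10 cell type lists, with 1 point per probe set, red for those called higher, blue for those called lower, open for those not called, and a black bar at each median. Chil3, at 4.47, lies off the axis. The class II members have a median of 0.31 and skeletal muscle genes one of -0.87.

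Marker genes of cells that carry class II moved with genotype in part, and their part in the class II result was not tested. Of 6 Langerhans cell markers 2 rose and 0 fell, and the list mean was 7.33 to 7.43 on null arrays, against 7.21 to 7.31 on WT arrays. All 6 lay above the negative control median on every array. Of these, 4 were not called: Epcam differed by 0.27, Runx3 by 0.16, Mfge8 by -0.27 and Id2 by -0.21. Cd24a, also expressed by keratinocytes, rose by 0.55 (adjusted p = 0.00558), the largest difference of the list. Cd207, which encodes langerin, a protein of Langerhans cells and of some dermal dendritic cells, rose by 0.29 (adjusted p = 0.0460). Cd207 was called only with all arrays or without male WT 2 (adjusted p 0.0569 to 0.107 without any other), and not with same-numbered mice as pairs (0.0525).

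Of 17 probe sets for 16 dendritic cell markers 3 rose and 0 fell, with a median of 0.13, and the list mean was 4.70 to 4.89 on null arrays, against 4.47 to 4.66 on WT arrays. Fscn1, for an actin bundling protein of mature dendritic cells that other cells also express, rose by 1.02 (SE 0.09, adjusted p = 0.000215). Itgax, which encodes CD11c, rose by 0.79 (SE 0.11, adjusted p = 0.00332). The third rise was that of Flt3 (0.23, adjusted p = 0.0410), which lay under the negative control median on all 8 arrays, as did Zbtb46, Xcr1 and Clec9a, singled out as defining markers. Irf4, a dendritic cell transcription factor gene singled out after its values were seen, had all null arrays under the WT arrays (-0.26, adjusted p = 0.0532). One marker was called lower without the sex term, after repeated quantile normalization, with no trend, a robust prior or array weights, and without male null 1. The count of rises was 2 without either female null array, either male WT array or female WT 2.

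Macrophage markers mostly moved the other way. Of 13, 0 rose and 5 fell, with a median of -0.39, and the list mean was 5.39 to 5.99 on null arrays, against 5.98 to 6.51 on WT arrays. The hyaluronan receptor gene Lyve1, also a lymphatic marker, fell by 1.21 (adjusted p = 0.0132), and the folate receptor gene Folr2 fell by 1.205 (adjusted p = 0.0265). The other falls were those of Cd163 (-0.97), C1qc (-0.59) and Mertk (-0.39). Of the 8 not called, Cd14 (0.38) and Cd68 (0.14) were higher in null skin. Adgre1, Csf1r, Mrc1, C1qa, C1qb and Fcgr1 differed by -0.10 to -0.68. Folr2 missed the call without male null 2 (0.0875), female null 1 (0.0768), female null 2 (0.0703) or male WT 1 (0.0502). The count of falls was 9 without male null 1, 3 without male WT 2 or female WT 2, 2 without male null 2, female null 2 or male WT 1, and 1 without female null 1. It was 7, with 1 rise, where same-numbered mice were pairs, and 8 with array weights and 3 with a robust prior or over all non-control probe sets.

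Of 5 genes listed as monocyte markers 2 rose, with a list median of 0.42. Chil3 rose by 4.47 (adjusted p = 0.000923) and the integrin gene Itgam by 0.71 (adjusted p = 0.0239), and which cells carry these rises was not tested. The list mean was 6.22 to 6.44 on null arrays, against 4.95 to 5.93 on WT arrays. Chil3 was under the negative control median on 3 WT arrays, so 4.47 is no exact size, and it makes up most of the gap between these means. The other 3 markers were not called: Ccr2 differed by 0.42, Plac8 by 0.067 and Ly6c2 by -0.21. Itgam missed the call without male null 2, female null 1, either male WT array or female WT 2 (0.0556 to 0.0782). Among 8 pan-leukocyte genes only Cd52 was called higher (0.46, adjusted p = 0.0112), and the list mean was 5.45 to 5.78 on null arrays, against 5.23 to 5.87 on WT arrays. Of those not called, Ptprc differed by 0.64 (adjusted p = 0.0570), Cd53 by 0.37, Tyrobp by 0.22 and Coro1a by 0.20. Laptm5 differed by -0.12, Rac2 by -0.031 and Fcer1g by -0.16. Without female WT 1, whose pan-leukocyte mean was the highest of all 8, 4 of the 8 were higher.

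B cells are among the cells best known to express H2-O. Of 10 B cell marker probe sets for 9 genes, 5, among them Ms4a1 (which encodes CD20), lay under the negative control median on all 8 arrays and 2, Pax5 and Ebf1, above it on all 8, and the list mean was 3.93 to 4.04 on null arrays, against 3.97 to 4.23 on WT arrays. Ebf1, which other skin cells also express, fell by 0.56 (adjusted p = 0.0345). Leaving out any array but male null 1 or male WT 2 ended that call (0.0506 to 0.111). Of 8 T cell markers only Cd3g rose (0.20, adjusted p = 0.0393), under the negative control median on all 8 arrays. It kept its call only without male null 1 (0.0592 to 0.118 without any other array, and 0.0546 with same-numbered mice as pairs).

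Other parts of the tissue also differed. Of 14 skeletal muscle genes 12 fell, led by Neb (-1.05, adjusted p = 0.00693) and Eno3 (-0.996, adjusted p = 0.00949), and the list mean was 8.15 to 8.70 on null arrays, against 8.88 to 9.67 on WT arrays. The muscle count was 5 without male null 2 or female null 1 and 6 without female null 2 or male WT 1, and also 6 with a robust prior. Of 6 epidermal keratins Krt2 fell by 0.60 (adjusted p = 0.00110) and Krt15 by 0.56 (adjusted p = 0.00515), while the list mean was 11.13 to 11.28 on null arrays, against 11.19 to 11.47 on WT arrays. Of 7 vascular endothelial genes Pecam1 rose (0.27, adjusted p = 0.0296), a call that held without male WT 1 or female WT 1 and was missed without each of the other arrays (0.0512 to 0.0990), and Lyve1 fell as above. The part of tissue make-up in the class II result was not tested.

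**Figure D4:**
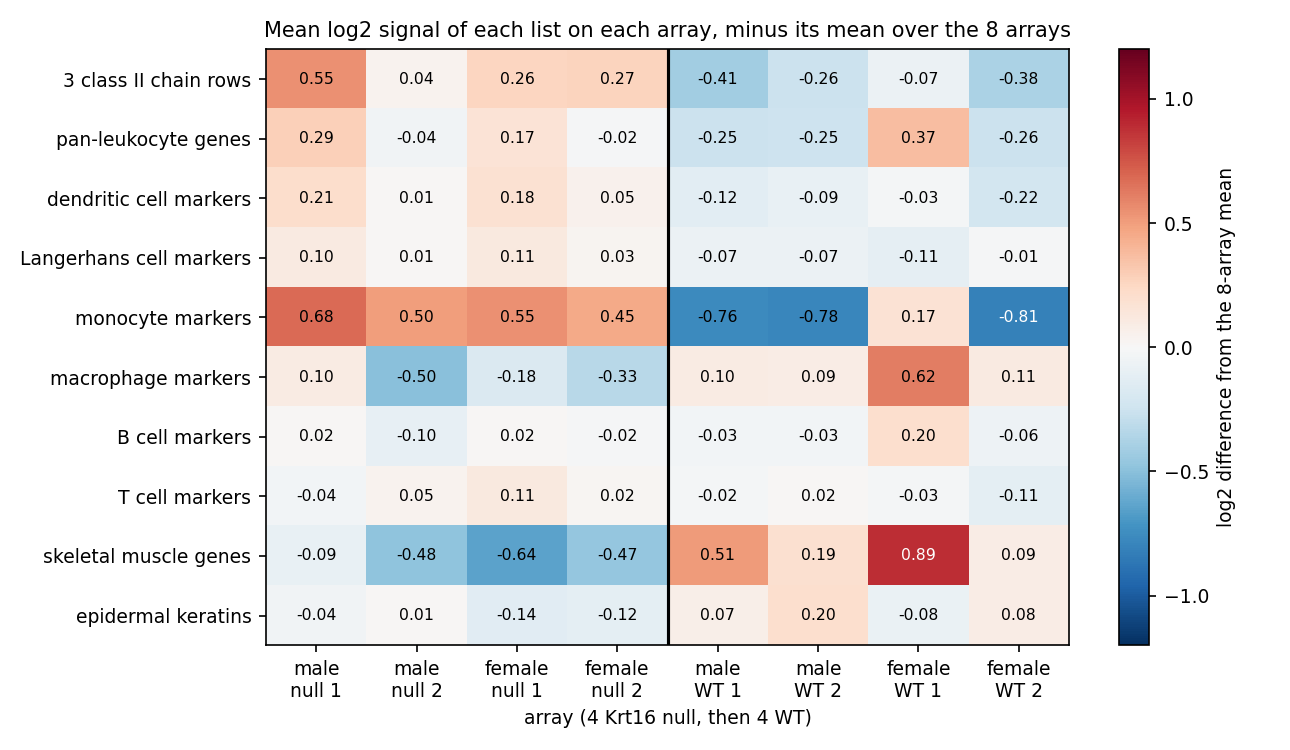
Mean log2 signal of the 3 class II chain probe sets and of 9 cell type lists on each array, null arrays left of WT arrays, minus the mean of that list over the 8 arrays. The chains are highest on male null 1 (0.55) and lowest on male WT 1 (-0.41), and female WT 1 carries the highest pan-leukocyte (0.37), macrophage (0.62) and muscle (0.89) values.

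Genes whose pattern was most like that of the chains were found by Pearson correlation with the mean of H2-Aa, H2-Ab1 and H2-Eb1 over the 8 arrays, which share the genotype contrast. The 10 highest among single-gene probe sets were Gm21045 (r = 0.986), the semaphorin receptor gene Plxnc1 (0.975), the granin gene Chga (0.974), Itgax (0.971), the coagulation factor gene F10 (0.971), the lectin gene Cd209e (0.971), the glucosylceramidase gene Gba2 (0.970), Gm23428 (0.970), the beta-glucan receptor gene Clec7a (0.969) and the transferrin receptor gene Tfrc (0.969). With the probe set of Cd74 and Mir5107 added to the mean, 9 of these 10 stayed in the list. After the 4 group means were taken out, which leaves 4 free values, the highest were Ndfip1 (r = 0.998), an immunoglobulin kappa variable segment (0.998), Clec4a4 (0.998), E130311K13Rik (0.998) and Pnpla2 (0.997). None of the last 5 was among the first 10. Gm21045, F10, Gm23428 and Clec4a4 lay under the negative control median on all 8 arrays, Cd209e on 6, Plxnc1 on 5, Clec7a and the kappa segment on 4 and Itgax on 3. Of the first 10, those above it on every array were Gba2, Tfrc and Chga. Gba2 averaged 7.60 in null and 7.23 in WT skin (0.37, limma adjusted p = 0.00731). Tfrc averaged 7.10 in null and 6.93 in WT skin (0.18, adjusted p = 0.0798), and Chga differed by 0.25 (adjusted p = 0.0488). Of the last 5, those above it on every array were lower in null skin. Pnpla2 differed by -0.71 (adjusted p = 0.000981), E130311K13Rik by -0.24 (adjusted p = 0.0587) and Ndfip1 by -0.15 (adjusted p = 0.138).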

How the data were processed

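Forepaw skin RNA of 8 mice was measured on 8 single-colour Affymetrix arrays labelled with the WT PLUS kit. The authors deposited log2 signals for each probe set on each array, from RMA in Partek per the submitters' processing notes. Versions, settings, genome build and annotation were not given in the sources used here. RMA compresses large fold changes.

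The 6732 controls among 72688 probe sets were dropped. After symbols had been updated through gene IDs and synonyms in RefSeq (GRCm38.p6), of 65956 others 31258 list 1 gene symbol, 1492 several and 33206 none; the first 2 kinds were tested without a filter on dim signal. The 8 arrays limit the precision. Array medians were 3.97 to 4.03, and positive exceeded negative control medians by 3.34 to 3.54.

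limma 3.58.1 in R 4.3.3 (lmFit, eBayes with intensity trend) used genotype and sex, with 5 residual degrees of freedom. Sex differences came from 4 group means (4 degrees of freedom). The fit was tested on simulated data. Python 3.11.15, numpy 2.4.6, pandas 2.3.3 and matplotlib 3.10.9 did the rest.

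Members and lists were chosen with earlier results of these data known. The text names all members, Krt16, and per list the 2 largest called rises and falls, or, with no call, the 2 of smallest p. It also names the 10 genes most correlated with the chains, and the 5 after group means. The rule for likeness included Cd74, left out for its shared probe set.

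Mice carry a number within sex and genotype in the labels. Across probe sets, residuals of same-numbered null and WT mice from their group means had r = 0.307 for males and 0.103 for females. Both pairs of a sex share 1 value, and which littermates share a litter or day is not stated. Both exceed 0.1, so pairs were fitted as an alternative.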

Additional observations from a re-analysis of the deposited data

Results flagged for a closer look

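In groups of 4 arrays, 1 WT array stood apart from the other 3 by Dixon's criterion in 4 of the 82 groups examined, and chance gives about 1 in 20. All 4 concern female WT 1. Chil3 read 5.47 on it, against 3.09 to 3.31 on the other WT arrays. Itgam read 6.43, against 5.60 to 5.62. Folr2 read 7.12, against 6.05 to 6.12. Lyve1 read 8.13, against 7.08 to 7.17. The same array held the highest WT value of all 9 class II probe sets, though none of these 9 met the criterion. Leaving it out raised the number of class II probe sets called higher to 6, against 4 with all arrays. The share of all probe sets called without this array was not taken, so the rise in the count has nothing to be set against. Counts of called rises also went up among pan-leukocyte and T cell costimulation genes, and down among Langerhans cell and T cell markers.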

How the results depend on the processing

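The number of class II probe sets called higher was 4 with all arrays and 2 to 6 with each array left out in turn; it was 2 without male WT 1, male WT 2, female WT 2 or female null 1, and 6 without female WT 1. With same-numbered mice as a replicate block it was 5, with Ciita added. It was also 5 without the sex term, without dim probe sets, after repeated quantile normalization and with median centring, 3 over all 65956 non-control probe sets, where H2-DMb1 missed (adjusted p = 0.0603), and 4 with 1 gene per probe set, no trend, a robust prior or array weights. None was called lower under these settings, and none differed between the sexes where that was tested (all but the fit without the sex term). H2-Ab1 and H2-Eb1 were called under all 18 alternatives, H2-Aa under 13, H2-DMb1 under 11, Ciita under 6 and H2-DMb2 under 1. H2-DMa, H2-Oa and H2-Ob were called under none, although the H2-O genes dropped out with the dim probe sets. The difference of H2-Oa turned to 0.023 with array weights and ran from -0.077 to 0.064 with arrays left out. Over the 6 pathway lists together 12 probe sets were higher and 4 lower, against 9 to 15 and 2 to 4 with arrays left out, and 14 and 4 with the replicate block. The share of all probe sets called was not taken with arrays left out or under the other alternatives. The causes of these shifts were not tested. Signal near the negative controls limits what can be said of Ciita, H2-Oa and H2-Ob.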
